A study of Mus musculus with 4 samples.

Results

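Macrophages that carried *Ms4a7* and the 3 C1q subunit genes, but few transcripts of the genes that identify microglia, were selected from single-cell RNA sequencing of mouse spinal cords (SCs) in experimental autoimmune encephalomyelitis (EAE), a model of multiple sclerosis. They were chosen by UMI counts, a UMI being a molecular tag that marks 1 captured transcript. A barcode with at least 2000 UMIs, under 10% of them mitochondrial, was kept when *Tyrobp*, *Fcer1g*, and *Ctss* summed to 10 or more, 4 endothelial genes to 2 or fewer, 4 T cell genes to 1 or fewer, and *Tmem119*, *P2ry12*, *Olfml3*, *Siglech*, and *Sall1* to 3 or fewer. Members then had at least 3 *Ms4a7* UMIs and at least 8 C1q UMIs, and met the upper limits of the rule, among them at most 2 *Gpnmb* and at most 1 *Nos2* UMIs. The rule found 90 cells among 26525 barcodes with enough UMIs, and the levels of the genes it used are given only as a description.

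The 4 droplet libraries, 1 per condition, were made from SC cells after a sort for live leukocytes (CD45+) and endothelial cells (ECs, CD31+) in equal number. In the blockade pair, wild-type C57Bl/6JOlaHsd mice of 15 weeks received an isotype control antibody (mIgG1) or an angiopoietin-2 (Ang2)–blocking antibody (Ang2 Ab) from the day of EAE induction and were analysed at 14 days post immunization (dpi). In the overexpression pair, mice labelled C57Bl/6JCrl, 12 to 14 weeks old, were analysed at 12 dpi. *EC-Ang2* mice carried *VE-cadherin-tTA* and *Tet-OS-Ang2*, so that ECs made extra Ang2, with doxycycline given until birth, and Ctrl mice were littermates with a single transgene. All mice were immunized with MOG35-55 peptide in CFA and given pertussis toxin, at a lower dose in the overexpression pair. Whether cells of several mice were pooled is not given in the sources used here. With 1 library per condition there is no test of a condition, and batch, substrain, age, and day cannot be told apart from the difference between the pairs. All intervals are exact 95% intervals and cover counting error only.

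C1q is the recognition unit of the classical complement pathway, and in the CNS it is made mainly by microglia and other macrophages. *Ms4a7* encodes a membrane protein of macrophages that resident microglia carry at low levels, whereas macrophages of the meninges and perivascular spaces and macrophages derived from blood monocytes carry more of it. Monocytes that enter the CNS in EAE lose *Ly6c2* and *Plac8* as they mature, gain *Apoe* and MHC class II, and present antigen to T cells. In the mm10 annotation (GENCODE vM21), *Ms4a7* lies on chr19:11321039-11336146, *Apoe* on chr7:19696109-19699188, and *C1qa*, *C1qb*, and *C1qc* lie side by side on chromosome 4, from *C1qb* at chr4:136880129-136886187 to *C1qa* at chr4:136895917-136898803.

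The members numbered 46 in mIgG1 and 18 in Ang2 Ab, and 16 in Ctrl and 10 in *EC-Ang2*, with 315265, 101637, 139578, and 85535 UMIs in all. Their median depth was 6511 UMIs per cell in mIgG1 and 5248 in Ang2 Ab, and 8612.5 in Ctrl and 9072.5 in *EC-Ang2*, so the *EC-Ang2* and Ctrl values rest on few but deeper cells. As a share of myeloid cells low in microglial genes, members made up 2.09% in mIgG1 (46 of 2199, interval 1.54 to 2.78) and 0.756% in Ang2 Ab (18 of 2381, 0.449 to 1.19). The share was 1.38% in Ctrl (16 of 1161, 0.79 to 2.23) and 0.5% in *EC-Ang2* (10 of 2000, 0.24 to 0.918). The intervals of the blockade pair do not overlap, with the lower share in the treated library, and those of the overexpression pair do. As a share of all kept barcodes, which the equal sort of CD45+ and CD31+ cells sets in part, members were 0.658% in mIgG1 and 0.24% in Ang2 Ab, and 0.241% in Ctrl and 0.185% in *EC-Ang2*.

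**Figure D1:**
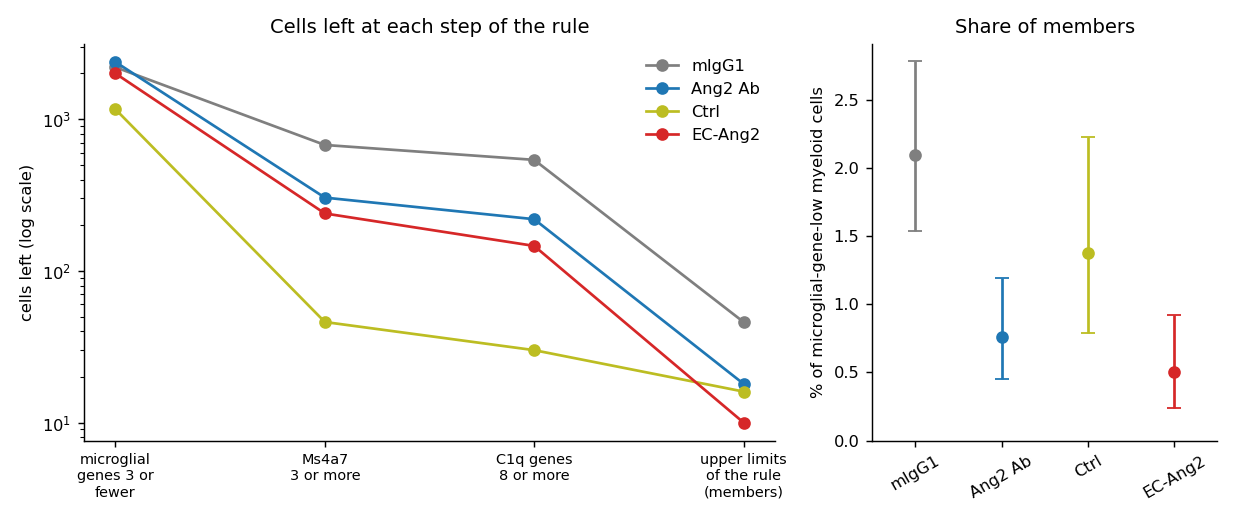
Cells left at each step of the rule (left, log scale) and members as a percentage of microglial-gene-low myeloid cells (right, exact 95% binomial interval, counting error only), 1 line or point per library. The last step takes *EC-Ang2* from 146 to 10 cells and mIgG1 from 539 to 46.

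The upper limits of the rule decided how many cells were members. Of the cells that had met the *Ms4a7* and C1q limits, 46 of 539 in mIgG1 and 18 of 219 in Ang2 Ab were members, and 16 of 30 in Ctrl and 10 of 146 in *EC-Ang2*. Without the upper limits, the shares of microglial-gene-low cells were 24.5% in mIgG1 and 9.20% in Ang2 Ab, and 2.58% in Ctrl and 7.3% in *EC-Ang2*, and Ctrl rather than *EC-Ang2* had the smallest. The *Ms4a7* limit also lay among many cells, and in Ctrl 15 cells lay just below it beside 16 members. Of cells that met everything else, 14, 3, 3, and 3 (mIgG1, Ang2 Ab, Ctrl, and *EC-Ang2*) had exactly 3 *Ms4a7* UMIs and 17, 4, 15, and 6 had 2. At the microglial limit, 6, 2, 2, and 0 cells summed to 3 and 4, 0, 1, and 1 summed to 4, and at the *Gpnmb* limit 6, 1, 0, and 0 cells had 2 UMIs and 10, 1, 0, and 0 had 3. At the *Nos2* limit 6, 0, 1, and 0 cells had 1 UMI and none had 2. For C1q, no cell had 8 to 12 UMIs and 6, 1, 1, and 1 had 3 to 7.

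The genes that name these cells were detected in all 4 libraries, as the rule requires. *Ms4a7* was at 917 CPM (a gene's UMIs relative to all UMIs of the members) in mIgG1 and 1112 in Ang2 Ab, and 967 in Ctrl and 725 in *EC-Ang2*, and single cells held 3 to 23 UMIs. *C1qa*, which the rule also used, was at 5005, 4398, 5517, and 4080 CPM in that order. *Apoe*, the lipid carrier, was not in the rule and had UMIs in all 90 cells, from 2 to 739 per cell. It was at 42488 CPM in mIgG1 and 20140 in Ang2 Ab, and 32713 in Ctrl and 21360 in *EC-Ang2*. All 8 genes of a macrophage list, among them *Cd68*, *Csf1r*, *Adgre1*, and *Mertk*, were detected in mIgG1, Ang2 Ab, and Ctrl members, and only *Mertk* was at 0 in *EC-Ang2*.

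Markers of other cells were scarce. Of 10 dendritic cell genes, 7, 8, 9, and 9 were at 0 in mIgG1, Ang2 Ab, Ctrl, and *EC-Ang2*, *Flt3*, *Zbtb46*, *Cd209a*, and *Xcr1* among them in every library. The whole dendritic cell list summed to 12.7, 39.4, 7.16, and 11.7 CPM, led by *Kmo* in mIgG1, *Ccl22* and *Ccl17* equally in Ang2 Ab, *Clec9a* in Ctrl, and *Ccl17* in *EC-Ang2*. The 4 measured B cell genes summed to 3.17 CPM in mIgG1 and 0 in Ang2 Ab, and 14.3 in Ctrl and 0 in *EC-Ang2*, where 0 UMIs allow up to 29.5 CPM in Ang2 Ab and 35.1 in *EC-Ang2*. T cell genes outside the rule summed to 41.2, 88.6, 21.5, and 46.8 CPM, with *Il7r* the most abundant in mIgG1 and Ang2 Ab and level with *Thy1* in *EC-Ang2*. In Ctrl *Thy1*, *Lck*, and *Icos* were at 7.16 CPM each. Endothelial genes outside the rule summed to 783, 767, 537, and 643 CPM, led by *Slc2a1* in mIgG1 and *Ly6c1* elsewhere. These endothelial UMIs were used to size the free RNA in the droplets, which came to 5.99% of member UMIs in mIgG1 and 5.62% in Ang2 Ab, and 3.86% in Ctrl and 4.53% in *EC-Ang2*. Oligodendrocyte and neural genes summed to between 57.3 and 257 CPM, the highest in *EC-Ang2*, where *Mbp* led. Granulocyte genes were at 82.5, 167, 931, and 140 CPM, and 1 Ctrl cell held 82.6% of the *S100a8* and *S100a9* UMIs of its library. No member was among the barcodes with the highest Scrublet doublet scores, and 3 mIgG1 and 2 Ang2 Ab members shared their barcode sequence with a kept cell of another library.

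Microglial genes that the rule did not use were low but not absent. The matrix glycoprotein gene *Sparc* was at 53.9, 49.2, 50.2, and 23.4 CPM in members (mIgG1, Ang2 Ab, Ctrl, and *EC-Ang2*) against 837, 931, 1513, and 781 in cells with at least 10 UMIs of the 5 microglial rule genes. The fractalkine receptor gene *Cx3cr1* was at 168, 167, 136, and 117 CPM in members against 599, 581, 706, and 488. *Gpr34* was at 0 in Ang2 Ab members and at 12.7, 50.2, and 11.7 CPM in mIgG1, Ctrl, and *EC-Ang2*. *Fcrls* varied most, with 47.6 CPM in mIgG1 and 246 in Ang2 Ab, and 308 in Ctrl and 35.1 in *EC-Ang2*, and 1 Ang2 Ab cell held 48% of that library's *Fcrls* UMIs. In each library all 4 genes stood below the microglial-gene-positive cells, and free RNA could account for 9.31% (Ctrl) to 11.4% (mIgG1) of the UMIs of an 11-gene microglial list.

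Against these microglial-gene-positive cells (135, 252, 779, and 48 cells), members had more *Ccr2* and more of the MHC class II chain genes in all 4 libraries. The 15 genes with the largest smallest ratio over the 4 libraries included *Ccr2*, the receptor that brings monocytes into tissue, with log2 ratios of 2.33 in mIgG1 and 3.00 in Ang2 Ab, and 3.25 in Ctrl and 4.54 in *EC-Ang2*. The MHC class II chain gene *H2-Aa* had ratios of 1.58, 2.38, 3.43, and 2.14, and *H2-Eb1* of 1.74, 2.39, 3.81, and 1.83. *Clec12a* (1.87, 2.67, 3.20, and 3.04), an inhibitory lectin receptor, and *Tgfbi* (1.71, 2.17, 2.37, and 2.43), a matrix protein, were in the same group. The monocyte gene *Plac8* had no common direction, with 257, 708, 774, and 3297 CPM in members and 316, 300, 1075, and 395 CPM in microglial-gene-positive cells. *Ly6c2* stood above these cells in mIgG1, Ang2 Ab, and *EC-Ang2* members, and in Ctrl it was at 229 CPM against 220. In the other direction, *Il1a*, an alarmin, had log2 ratios of −2.33, −4.96, −5.07, and −2.87. *Tnf* had ratios of −3.90, −4.75, −2.63, and −4.02, the tetraspanin gene *Cd81* of −3.49, −4.30, −2.30, and −3.72, and *Bin1* of −2.92, −2.65, −3.63, and −4.22. *C1qa* stood below the microglial level in every library, at 4080 to 5517 CPM in members and 7495 to 9167 CPM in microglial-gene-positive cells.

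The Gpnmb-positive cells also met the *Ms4a7* and C1q limits but had at least 3 *Gpnmb* UMIs, whatever the remaining upper limits. There were 353 in mIgG1 and 98 in Ang2 Ab, and 2 in Ctrl and 68 in *EC-Ang2*, so the Ctrl values of that class rest on 19149 UMIs and are left out here. Members had less of the lipid chaperone gene *Fabp5*, with log2 ratios of −3.02 in mIgG1, −5.03 in Ang2 Ab, and −3.84 in *EC-Ang2*. Osteopontin (*Spp1*; −2.25, −3.32, and −1.75), galectin-3 (*Lgals3*; −1.42, −1.68, and −1.74), and the lipid droplet gene *Hilpda* (−2.12, −4.01, and −2.67) had the same direction. Members had more *Ccr2* (2.32, 2.77, and 3.58), *Ms4a4c* (1.86, 2.68, and 3.27), the chemokine gene *Ccl12* (1.74, 2.70, and 3.15), and *Aif1* (1.11, 1.42, and 2.23), which encodes the macrophage protein IBA1. *Apoe* differed little between these classes within a library, with 42488 and 38302 CPM in mIgG1 and 20140 and 17555 CPM in Ang2 Ab, and was farther apart in *EC-Ang2*, with 21360 and 10533 CPM.

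Against the Ly6c2 Plac8 monocytes (325, 682, 485, and 872 cells low in microglial genes, with no *Ms4a7*, at most 2 C1q UMIs, and at least 3 UMIs of *Ly6c2* and *Plac8*), members had more *Apoe*, *Lgmn*, *Trem2*, and *C3ar1*. *Apoe* had log2 ratios of 2.33 in mIgG1 and 2.40 in Ang2 Ab, and 4.08 in Ctrl and 2.81 in *EC-Ang2*. The lysosomal protease gene *Lgmn* had ratios of 1.74, 2.23, 2.32, and 2.55, and the lipid receptor gene *Trem2* of 1.88, 2.05, 2.52, and 1.95. The anaphylatoxin receptor gene *C3ar1* was higher too, with 2.20, 1.86, 1.58, and 1.54. Lower in members were *S100a8* (−4.70, −7.31, −4.15, and −7.10), *Ifitm1* (−3.56, −2.26, −2.44, and −2.42), and the decoy receptor gene *Il1r2* (−4.76, −1.89, −3.82, and −2.74). The monocyte genes differed among themselves. *Plac8*, which was used with *Ly6c2* to choose that class, was at 257 to 3297 CPM in members and 3878 to 8352 in monocytes, and it, *Chil3*, and *Ly6i* were lower in members in all 4 libraries. *Chil3* was at 1177, 374, 86.0, and 1391 CPM in members and 3470, 2622, 1083, and 7917 in monocytes, and *Vcan* was at 0 in all members. *Ly6c2*, however, was at 1386, 2096, 229, and 5729 CPM in members and 1334, 1809, 1868, and 2686 in monocytes, so it was lower in members in Ctrl only. *Ms4a4c*, at 444, 1259, 537, and 2221 CPM in members and 637, 1155, 1373, and 945 in monocytes, was lower in members of mIgG1 and Ctrl only. *Ccr2* differed less, at 190, 344, 423, and 362 CPM in members and 335, 279, 313, and 295 in monocytes. *Ccr2* was lower in members in mIgG1 only.

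**Figure D2:**
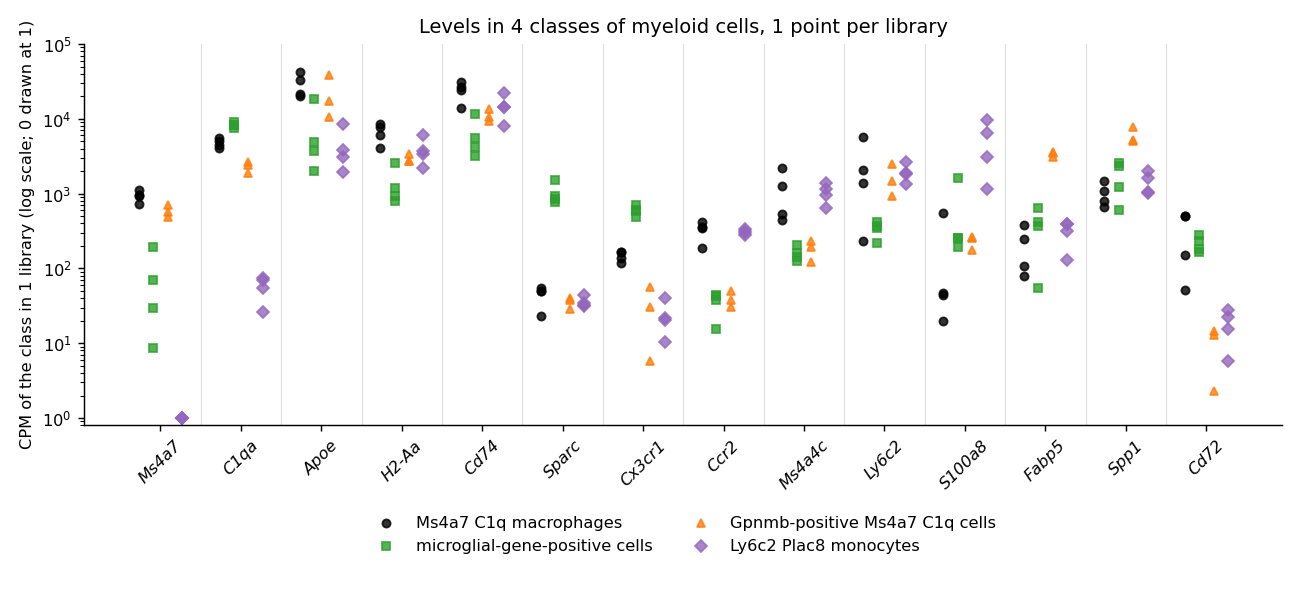
CPM (log scale, 0 drawn at 1) of 14 genes in 4 classes of myeloid cells, 1 point per library, without the 2 Ctrl cells of the Gpnmb-positive class. Members have more *Ccr2* than the microglial-gene-positive and Gpnmb-positive cells and less *Sparc* than the microglial-gene-positive cells in every library. *Ms4a7* and *C1qa* were used to choose the classes, and so was *Ly6c2*, with *Plac8*, for the monocytes.

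MHC class II genes were among the most abundant transcripts of these cells. *Cd74*, the invariant chain, was at 26885 CPM in mIgG1 and 24155 in Ang2 Ab, and 31323 in Ctrl and 14099 in *EC-Ang2*, and *H2-Aa* was at 7667, 6100, 8497, and 4104 CPM. *EC-Ang2* was the lowest for both. The 3 chains *H2-Aa*, *H2-Ab1*, and *H2-Eb1* together made up between 0 and 5.94% of a cell's UMIs in mIgG1 (median 2.20%) and between 0.168% and 4.34% in Ang2 Ab (1.69%). They made up between 0.00754% and 5.02% in Ctrl cells (2.06%) and between 0.0182% and 3.11% in *EC-Ang2* cells (0.953%). The ranges of single cells overlap in all 4 libraries, and each library but Ang2 Ab held at least 1 cell at or near 0. *Ciita*, the regulator that switches these genes on, was at 0 or 1 UMI in each library and could not be compared at this depth. MHC class II genes are known to share promoter elements, an X box and a Y box, the second holding CCAAT. The 120 bases before the start of *H2-Aa* and *H2-Eb1* (RefSeq, GRCm38.p6) are shown because these chains were lower together in *EC-Ang2*, with CCAAT on either strand in capitals:

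H2-Aa: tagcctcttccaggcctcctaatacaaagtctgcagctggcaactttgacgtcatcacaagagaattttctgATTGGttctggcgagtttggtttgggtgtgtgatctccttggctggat

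H2-Eb1: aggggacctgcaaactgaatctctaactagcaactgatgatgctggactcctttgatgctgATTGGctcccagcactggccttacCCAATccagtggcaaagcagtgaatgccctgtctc

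The *H2-Aa* window (chr17:34287824-34287943, minus strand) holds the match 48 bases before the start, and the *H2-Eb1* window (chr17:34305747-34305866, plus strand) holds matches at 59 and 35 bases. Of 32851 promoter windows of this length, 21.3% hold CCAAT on either strand, so the match sets these genes little apart.

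Once each member was thinned to 2000 UMIs, *Apoe*, *Cxcl2*, *Cd74*, *Ccl4*, *Fth1*, and *Lyz2* had the largest variance over mean between cells. This ratio favours abundant genes, so it does not rank genes by relative differences between cells. In mIgG1, *Apoe* had a mean of 87.2 UMIs and a ratio of 22.6, and *Ccl5* a mean of 4.24 and a ratio of 18.1. The mean ratio over libraries was 23.5 for *Apoe*, 18.9 for *Cxcl2*, and 18.5 for *Cd74*, against a median of 1.24 over genes with a mean of at least 0.5 UMIs. The place of *Cxcl2* came from Ctrl, with a ratio of 64.0 there against 4.8 in mIgG1, 2.82 in Ang2 Ab, and 4.15 in *EC-Ang2*, and 1 thinned Ctrl cell held 91 *Cxcl2* UMIs. That of *Ccl4* came mainly from *EC-Ang2*, with 49.6 there against 5.08 in mIgG1, 2.19 in Ang2 Ab, and 10.1 in Ctrl. *Apoe* ranged from 0.0456% to 6.23% of UMIs in Ang2 Ab cells and from 0.649% to 9.32% in Ctrl cells. Most UMIs of the inflammatory chemokine genes came from few cells in the overexpression pair. In *EC-Ang2*, 1 of 10 cells held 92% or more of all *Ccl3* and *Ccl4* UMIs (53 and 231 UMIs), and that cell held 264 UMIs of *Ccl2*, *Ccl3*, *Ccl4*, *Ccl7*, and *Ccl12* together. In Ctrl, 2 cells held 339 and 303 of the 944 UMIs of these 5 genes, while the Ctrl median was 20 and the lowest cell had 2. They were spread more evenly in the blockade pair, with UMIs in 33 of 46 mIgG1 cells and 17 of 18 Ang2 Ab cells, and the top cell held 16.3% and 22.7% of them. The cell with 339 also held all 29 UMIs of 12 cycling genes found in Ctrl members, the one member with transcripts of at least 3 of them.

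Transcripts of 5 genes of border-associated macrophages, the resident macrophages of the meninges and perivascular spaces, came mainly from Ctrl. Ctrl held 67 of their UMIs against 3 in mIgG1, 1 in Ang2 Ab, and 2 in the *EC-Ang2* library. Other border-associated genes were spread over all 4 libraries. *F13a1* was at 124 CPM in mIgG1 and 39.4 in Ang2 Ab, and 115 in Ctrl and 164 in *EC-Ang2*. In the same order, *Stab1* was at 95.2, 88.6, 150, and 93.5 CPM and *Maf* at 44.4, 98.4, 122, and 58.5. *Mrc1*, the mannose receptor, was at 3.17 CPM in mIgG1 and 0 in Ang2 Ab, and 150 in Ctrl and 23.4 in *EC-Ang2*. *Folr2*, *Cd209f*, and *Clec10a* had 9, 9, and 14 UMIs in Ctrl, and 0, 0, and 1 in mIgG1, with none in Ang2 Ab and *EC-Ang2*. All 9 *Cd209f* UMIs came from 1 Ctrl cell. *Mrc1*, *Cbr2*, *Folr2*, *Cd209f*, and *Clec10a* summed to 5 or more UMIs in 4 of 16 Ctrl cells and in 0 of the other 74 members, with 34, 12, 9, and 5 UMIs. As a share this was 25% in Ctrl (interval 7.27 to 52.4), and 0 cells allow up to 7.71% in mIgG1, 18.5% in Ang2 Ab, and 30.8% in *EC-Ang2* by the same exact interval, each of which reaches into that of Ctrl. In the same order, these cells held 29, 2, 3, and 166 UMIs of the 3 MHC class II chains, against a Ctrl median of 187.5. *Pf4*, a platelet chemokine that these macrophages also make, was found more widely, with 11 UMIs in 6 mIgG1 cells, 7 in 4 Ang2 Ab cells, 23 in 7 Ctrl cells, and 14 in 1 *EC-Ang2* cell. Free RNA could account for 0.67% of the UMIs of the 13-gene border-associated list in Ctrl. With every cell thinned to 2000 UMIs, 31.2% of Ctrl members (5 of 16, interval 11 to 58.7) had at least 2 UMIs of the 13 genes, as did 20% of *EC-Ang2* members (2 of 10, 2.52 to 55.6). In the blockade pair the share was 10.9% for mIgG1 (5 of 46, 3.62 to 23.6) and 11.1% for Ang2 Ab (2 of 18, 1.38 to 34.7). Before thinning it was 75% in Ctrl and 60% in *EC-Ang2*, and 50% in mIgG1 and 33.3% in Ang2 Ab. The counting intervals of the thinned shares overlap, and they cover counting error within single libraries only. *Cd163* was at 0 in all 4 libraries and *Lyve1* had 1 UMI each in Ctrl and *EC-Ang2*.

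**Figure D3:**
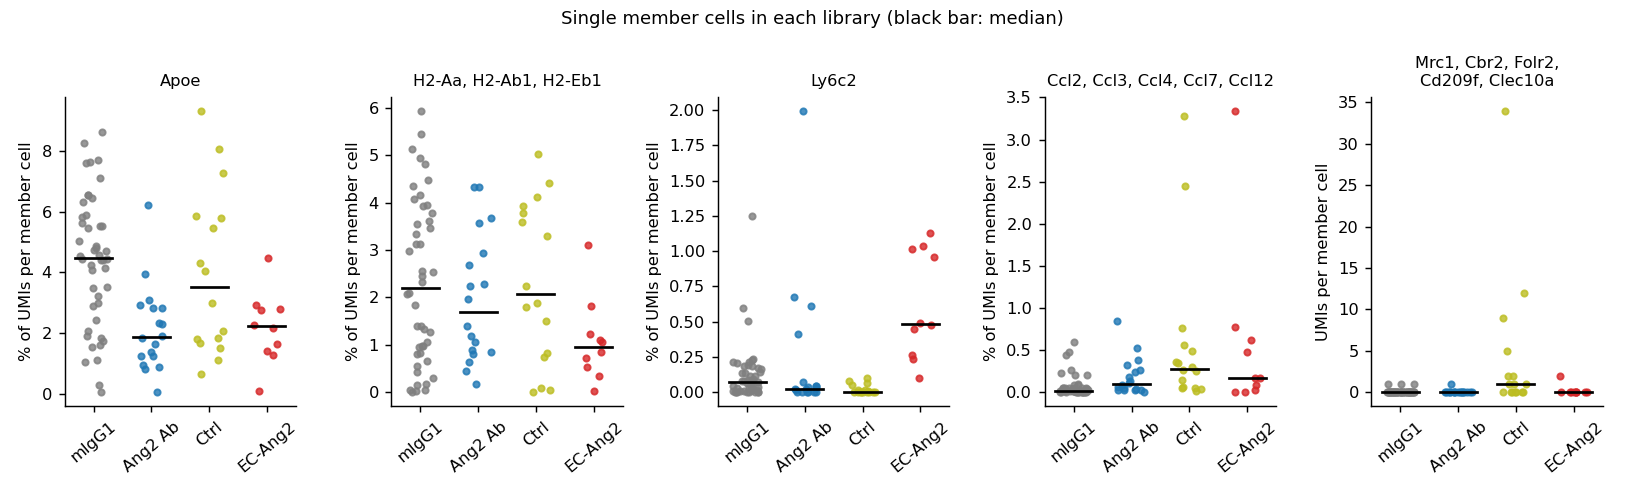
Single members in each library: *Apoe*, MHC class II chains, *Ly6c2*, and 5 chemokine genes as a percentage of the cell's UMIs, and summed UMIs of 5 border-associated macrophage genes. Points are cells, bars are medians, and the cells of a library are not replicates. *Ly6c2* is lowest in Ctrl (at most 0.102%) and 9 of 10 *EC-Ang2* cells lie above that level.

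The monocyte gene *Ly6c2* was highest in the *EC-Ang2* members. It was at 1386 CPM in mIgG1 and 2096 in Ang2 Ab, and 229 in Ctrl and 5729 in *EC-Ang2*, and the *EC-Ang2* cells held 12 to 109 UMIs each, the Ctrl cells 0 to 11. By share of UMIs, *EC-Ang2* cells had between 0.1% and 1.13% (median 0.482%) and Ctrl cells between 0 and 0.102%, so the ranges of the overexpression pair overlap by 1 cell. The medians of mIgG1 (0.0762%) and Ang2 Ab (0.0266%) lay within the Ctrl range, but the highest cells of these libraries reached 1.25% and 1.99%, above every *EC-Ang2* cell. *Plac8* had the same order within the overexpression pair, at 774 CPM in Ctrl, of which 1 cell held 81.5%, and 3297 in *EC-Ang2*. *Ccr2* was not higher in *EC-Ang2*, with 423 CPM in Ctrl and 362 in *EC-Ang2*.

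In the blockade pair, 1054 genes had at least 50 UMIs in both libraries together and a UMI in at least 10% of the members of 1 library. Of these, 94 (8.92%) were at least 1.5-fold higher in Ang2 Ab with an interval of the ratio that excluded 1, and 45 (4.27%) were at least 1.5-fold lower. The median log2 ratio of all 1054 genes was 0.11, and with ratios centred on it the counts were 65 higher and 70 lower. These counts describe 18 cells of 1 library against 46 of another and do not count genes changed by the antibody. Without the cell that held the most UMIs of a gene in the library where it was higher, 39 of the 94 and 32 of the 45 genes were still past the limit.

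The acute phase genes *Saa3* and *Hp*, *Lyz2*, *Apoe*, and 3 of 5 tested iron and heme genes were lower in Ang2 Ab. *Saa3*, a serum amyloid A protein that macrophages make under inflammation, was at 1446 CPM in mIgG1 members, where 29 of 46 cells had it, and at 49.2 CPM in Ang2 Ab, with 5 UMIs in 2 cells (log2 ratio −4.88, interval −6.51 to −3.64). Free RNA could account for 28.7% of those 5 UMIs, and 1 mIgG1 cell held 36.6% of the 456. *Hp*, haptoglobin, had 81 UMIs in mIgG1 and 2 in Ang2 Ab, a ratio of 257 to 19.7 CPM whose log2 interval ran from −6.78 to −1.81. The remaining acute phase gene, *Lcn2*, had too few UMIs to be tested, at 25.4 and 59.0 CPM. *Lyz2*, lysozyme, was at 17956 and 6130 CPM (−1.55, −1.67 to −1.43), with UMIs in every cell of both libraries. *Apoe* was lower by a log2 ratio of −1.08 (−1.14 to −1.01), with medians of 4.48% of UMIs per cell in mIgG1 and 1.87% in Ang2 Ab. Of 5 tested iron and heme genes, 3 were past the threshold, all lower: the ferritin heavy chain gene *Fth1* (−0.63), heme oxygenase *Hmox1* (−1.21), and the iron transporter gene *Slc11a1* (−1.22). The list's median was −0.63. Without their top cell *Fth1* was at −0.58 and *Hmox1* at −0.56 (−1.71 to 0.45), no longer past the limit, and *Slc11a1* was at −1.09. Without the upper limits *Fth1* was at 0.0915. *Saa3*, *Hp*, *Lyz2*, and *Apoe* were also lower in Ang2 Ab in microglial-gene-positive cells, Gpnmb-positive cells, and monocytes. In these classes, *Apoe* was at 18333 and 4956 CPM (mIgG1 and Ang2 Ab), 38302 and 17555, and 8476 and 3822. *Saa3* was at 903 and 134, 1955 and 692, and 790 and 412. Among these classes, *Fth1* was lower in Ang2 Ab only in microglial-gene-positive cells (24698 and 20325 CPM).

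Other lists split. The lysosome list had 2 genes higher and 3 lower of 19 tested, with *Ctsd*, cathepsin D, at −1.26 (−1.52 to −1.02, against 0.40 with the rule read at 2000 UMIs per cell), *Psap*, the saposin precursor, at −0.66 (−0.87 to −0.46), and a median of −0.14. The lipid and apolipoprotein list had none higher and 2 of 8 lower, *Apoe* and *Fabp5*, and a median of −0.44, but *Fabp5* was at 0.72 with the rule read at 2000 UMIs per cell. The complement and phagocytic receptor list had 3 of 11 higher, *Msr1*, *Fcgr1*, and *Fcgr4*, and *C3* lower, with the Fc receptor gene *Fcgr1* at 1.06 (0.56 to 1.56). *Msr1* was at 0.72 (−0.16 to 1.54) without its top cell. Of 6 tested MHC class II genes and 13 MHC class I genes none passed 1.5-fold in either direction, with medians of −0.23 and −0.01. Among MHC class II chains, *H2-Eb1* was at −0.36 (−0.51 to −0.21) and *H2-Aa* at −0.33 (−0.46 to −0.20).

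Of 7 tested monocyte genes, 4 were higher (*Ly6c2*, *Ccr2*, *Plac8*, and *Ms4a4c*) and 2 lower (*Chil3* and *Ly6i*), with a median of 0.60. Of the 4, *Ly6c2* and *Ccr2* were past the limit through 1 cell each, without which they were at 0.07 (−0.21 to 0.35) and 0.64 (−0.05 to 1.30), and the median cell of Ang2 Ab had less *Ly6c2* than that of mIgG1. *Ms4a4c* was at 444 CPM in mIgG1 and 1259 in Ang2 Ab (1.5, 1.15 to 1.86). *Plac8* was at 257 and 708 CPM (1.46, 0.98 to 1.94), and 1 Ang2 Ab cell held 41.7% of its 72 UMIs there. Of 6 tested interferon response genes, 2 were higher, the ubiquitin-like modifier gene *Isg15* at 1.19 (0.87 to 1.51) and the transcription factor gene *Irf7* at 0.69 (0.17 to 1.2), and none lower, with a median of 0.27 against 0.11 for all genes tested. *Irf7* was at 0.53 (−0.04 to 1.08) without its top cell. The largest ratio was that of *Cd72*, a C-type lectin of B cells and some macrophages, at 50.8 CPM in mIgG1 and 502 in Ang2 Ab (3.31, 2.47 to 4.22), with UMIs in 28.3% and 55.6% of cells. The chemokine gene *Ccl12* followed, at 159 and 610 CPM (1.94, 1.38 to 2.51), then the heat shock gene *Hspa1a* (1.89), the signal peptidase subunit gene *Spcs1* (1.66), and *Metrnl* (1.63). Among chemokines, *Cxcl10*, a T cell attractant induced by interferon, was lower (317 and 49.2 CPM, −2.69, against 0.45 without the upper limits) and so was *Ccl5* (2728 and 925 CPM; −1.56; −1.88 to −1.25).

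**Figure D4:**
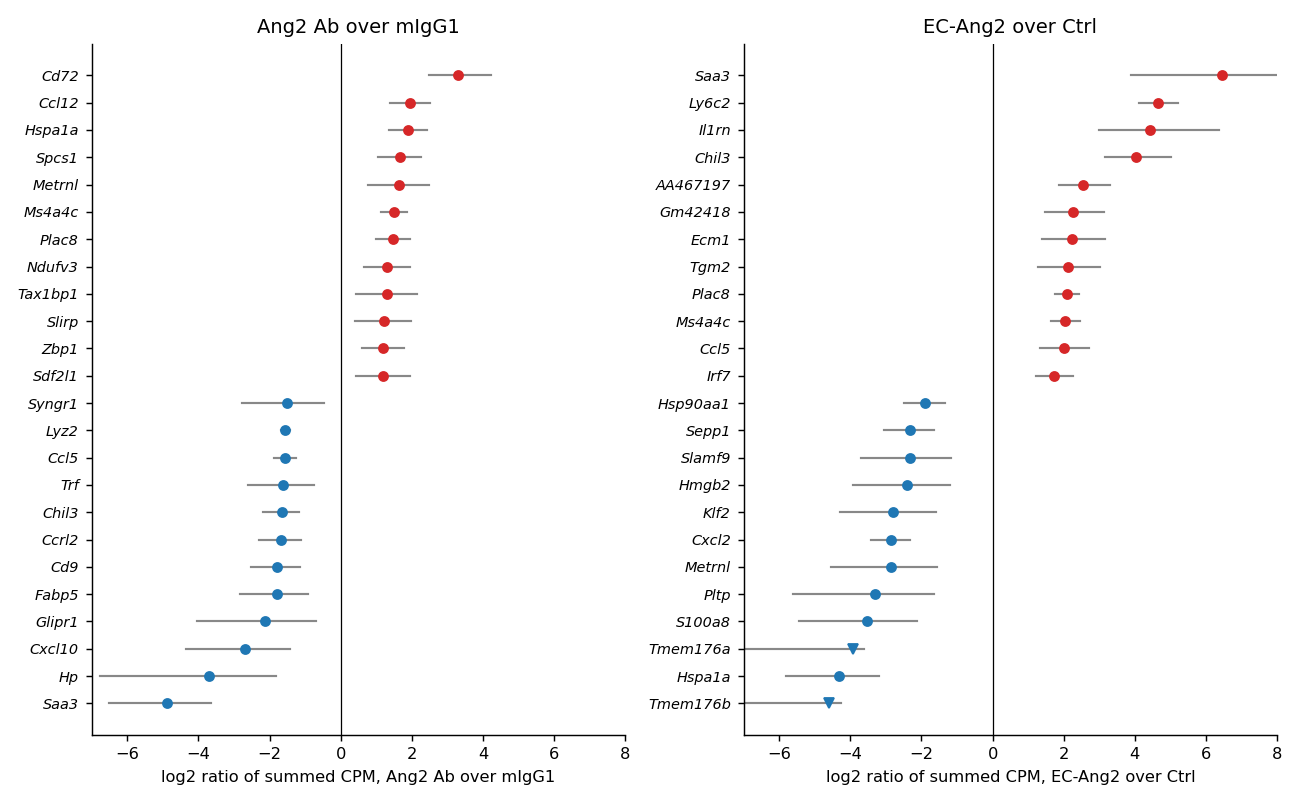
Log2 ratios of summed CPM between members of the treated and the control library, with exact 95% intervals, for the 12 genes with the largest ratios past 1.5-fold in each direction. Triangles mark *Tmem176a* and *Tmem176b*, at 0 in *EC-Ang2*, drawn against 3 counts; lines that reach the frame go on beyond it.

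In the overexpression pair 661 genes were tested, and 102 (15.4%) were at least 1.5-fold higher in *EC-Ang2* and 66 (9.98%) lower by the same limits. The median of all ratios was 0.08, and centred on it the counts were 82 and 83. They describe 10 cells against 16, and without the top cell of each gene 59 of the 102 and 33 of the 66 were still past the limit.

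MHC class II was lower and monocyte genes were higher in *EC-Ang2*. Of 6 tested MHC class II genes, 4 were lower and none higher, with a median of −1.07. *Cd74* had a log2 ratio of −1.15 (−1.24 to −1.06), *H2-Ab1* of −1.10 (−1.26 to −0.94), *H2-Aa* of −1.05 (−1.23 to −0.88), and *H2-Eb1* of −1.61 (−1.84 to −1.39). The size depended on the limits of the rule. With at least 2 *Ms4a7* UMIs, which took in 31 Ctrl and 16 *EC-Ang2* cells, *H2-Aa* was at −0.26 and the median of the list at −0.26, below 1.5-fold. With the rule read at 2000 UMIs per cell they were at −1.75 and −1.78. The peptide editors were not past the limit, with *H2-DMa* at 0.22 (−0.23 to 0.66) and *H2-DMb1* at −0.14 (−0.67 to 0.38). MHC class I went the other way in sign, with 3 of 9 tested genes higher, none lower, and a median of 0.36, and *H2-T22* at 1.27 (0.46 to 2.1), or 0.87 (−0.03 to 1.77) without its top cell. Of 5 tested monocyte genes, 4 were higher, with *Ly6c2* at 4.64 (4.13 to 5.21), *Plac8* at 2.09 (1.77 to 2.42, against −0.15 without the upper limits), and *Ms4a4c* at 2.05 (1.65 to 2.45), none was lower, and *Ccr2* was at −0.22 (−0.90 to 0.43). In monocytes of the same libraries, *Ly6c2* had a log2 ratio of 0.52 (0.48 to 0.57) and *Plac8* of −0.55 (−0.57 to −0.52). The monocytes were chosen by the sum of *Ly6c2* and *Plac8*, so both ratios are only a description. *Cd74* was at −0.81 (−0.83 to −0.80) in monocytes. In microglial-gene-positive cells *Cd74* went the other way, at 0.38 (0.32 to 0.44), and the median of the MHC class II list was 0.38, against −0.78 in monocytes.

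*Saa3*, *Fth1*, and 4 interferon response genes were also higher in *EC-Ang2*. Of 7 tested interferon response genes, 4 were higher (*Isg15*, *Irf7*, *Ifi204*, and *Bst2*) and none lower, with a median of 0.59. *Irf7* was at 344 CPM in Ctrl and 1134 in *EC-Ang2* (1.72, 1.21 to 2.25), and *Isg15* was at 817 and 1777 CPM (1.12, 0.76 to 1.48), with 41.2% of its Ctrl UMIs in 1 cell. Both genes were also past the limit in the blockade pair. The direction of *Isg15* in *EC-Ang2* depended on the upper limits of the rule, without which it was at −0.65 and the median of the list at −0.60. The 120 bases before the *Isg15* start are shown because its level differed in both pairs, with the interferon-type repeat, GAAA spaced from GAAA by any 2 bases, in capitals:

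Isg15: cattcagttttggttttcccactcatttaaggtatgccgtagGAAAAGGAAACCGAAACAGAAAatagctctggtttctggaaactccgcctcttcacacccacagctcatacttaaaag

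This window (chr4:156200819-156200938, minus strand) holds 3 overlapping matches between 78 and 66 bases before the start, and 1.22% of the 32851 windows hold the motif on either strand. *Saa3* had 1 UMI in Ctrl and 53 in *EC-Ang2*, of which 1 cell held 54.7% (log2 ratio 6.43; 3.89 to 11.76). Free RNA could account for that Ctrl UMI in full (226%). *Il1rn*, the interleukin-1 receptor antagonist, had 4 and 53 UMIs (4.43, 2.99 to 6.36), and free RNA could account for 41.7% of the 4. *Chil3*, a chitinase-like protein of activated myeloid cells, was at 86.0 and 1391 CPM (4.02, 3.16 to 5.01). *Tgm2*, transglutaminase 2, was at 122 and 526 CPM (2.11, 1.28 to 3.01). *Fth1* was at 12359 and 23569 CPM (0.93, 0.84 to 1.02), and it was 1 of 2 tested iron and heme genes.

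Genes lower in *EC-Ang2* included the membrane proteins *Tmem176b* and *Tmem176a*, heat shock genes, and *Pltp*. *Tmem176b* had 118 UMIs in 15 of 16 Ctrl cells and 0 in *EC-Ang2*, a log2 ratio of −4.59 against 3 counts, with an exact interval below −4.27. *Tmem176a* had 75 and 0 (−3.94 against 3 counts, interval below −3.60). *Hspa1a* was at 1411 and 70.1 CPM (−4.33, −5.79 to −3.18) with 6 UMIs in *EC-Ang2*, of which free RNA could account for 98.2%. Of 11 tested immediate early and heat shock genes, 4 were lower (*Jun*, *Atf3*, *Klf6*, and *Hspa1a*) and none higher, with a median of −0.57. Outside that list, the chaperone gene *Hsp90aa1* was at 1390 and 374 CPM (−1.89, −2.48 to −1.35). *Pltp*, a phospholipid transfer protein, had 48 UMIs in 13 Ctrl cells and 3 in 1 *EC-Ang2* cell (−3.29), and *Klf2*, a transcription factor of quiescent myeloid cells, had 68 and 6 (−2.80). *Sepp1*, a selenium carrier of mature macrophages, was at 1161 and 234 CPM (−2.31, −3.06 to −1.64). *Cxcl2* (−2.84) and *S100a8* (−3.54) were lower too, but 1 Ctrl cell held 52.6% of the first and 81.6% of the second, and without that cell *S100a8* was at −1.2 (−3.26 to 0.47). With the rule read at 2000 UMIs per cell, *Cxcl2* was at 1.26 and *S100a8* at 0.84. *Apoe* was lower by −0.61 (−0.69 to −0.54), and *Lyz2* by −0.69 (−0.81 to −0.57), and without their top cell these ratios were −0.52 and −0.40, below 1.5-fold. The lysosome list had 1 gene higher and 1 lower of 18, with a median of −0.07. Over all 661 genes tested, 15.4% were higher and 9.98% lower.

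**Figure D5:**
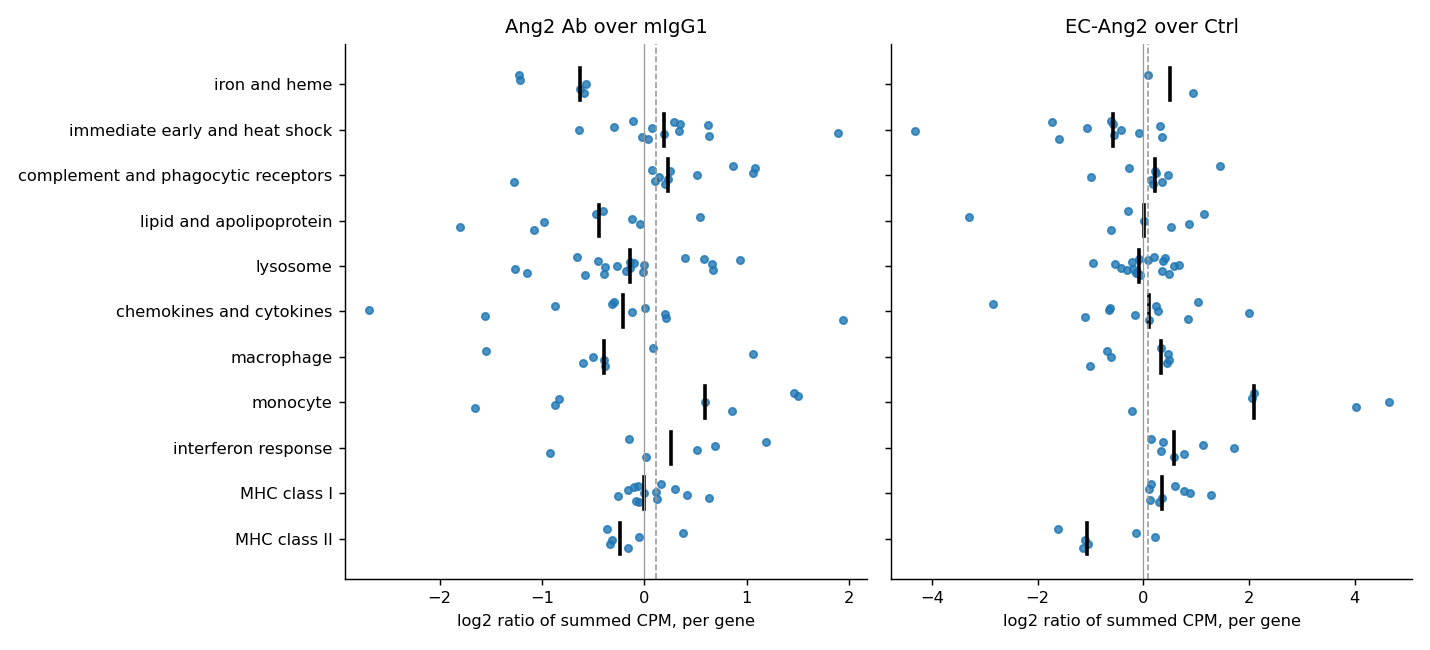
Log2 ratios of the tested genes of 11 lists in members, Ang2 Ab over mIgG1 (left) and *EC-Ang2* over Ctrl (right), with different x scales. Points are genes, black bars list medians, and the dashed line the median of all tested genes (0.11 and 0.08). MHC class II lies to the left in the right panel (median −1.07) and monocyte genes to the right (2.09).

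Of 640 genes tested in both pairs, 17 were past 1.5-fold higher in both treated libraries, *Isg15*, *Irf7*, *Ly6c2*, *Plac8*, *Ms4a4c*, *Msr1*, and *Ifitm3* among them. They were 17 of 65 genes higher in Ang2 Ab and 17 of 100 higher in *EC-Ang2*. Without the top cell of each gene 7 of the 17 were still past the limit in both pairs, *Isg15*, *Ms4a4c*, *Plac8*, *Zbp1*, *Ecm1*, *Ly6a*, and *Ifi27l2a*. Lower in both were 5, *Apoe*, *Lyz2*, *Cxcl2*, *Mt1*, and *Trf*, out of 24 genes lower in Ang2 Ab and 58 lower in *EC-Ang2*. Of these, *Mt1* and *Trf* were still past the limit in both without the top cell. With the rule read at 2000 UMIs per cell *Trf* was at 0.18 in the blockade pair. *Saa3*, *Ccl5*, *Chil3*, and *Fth1* were among 7 genes lower in Ang2 Ab and higher in *EC-Ang2*, and *Cd72*, *Hspa1a*, and *Metrnl* among 8 with the opposite pattern. The 7 were among the same 24 and 100 genes, and the 8 among the 65 and 58. Without the top cell 3 of the 7 (*Saa3*, *Chil3*, and *Pla2g7*) and 3 of the 8 (*Cd72*, *Hspa1a*, and *Metrnl*) were still past the limit in both pairs, and *Ccl5* in the overexpression pair was at 0.34 (−0.61 to 1.25), and at −1.03 with at most 1 microglial UMI. No control library is shared between the pairs.

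Of the genes for Ang2 receptors, those of the Tie family were at or near 0 in these cells and those of integrins were detected. *Tek*, which encodes the receptor Tie2, had 1 UMI in mIgG1 members and 0 in the others, where 0 UMIs allow up to 29.5 CPM in Ang2 Ab, with 21.5 in Ctrl and 35.1 in *EC-Ang2*. *Tie1* had 1 UMI in mIgG1 and 2 in *EC-Ang2*. *Itga5* and *Itgb1* encode the 2 chains of the integrin that also binds Ang2. *Itga5* was at 28.5 CPM in mIgG1 and 19.7 in Ang2 Ab, and 50.2 in Ctrl and 35.1 in *EC-Ang2*. *Itgb1* was at 121 CPM in mIgG1 and 78.7 in Ang2 Ab, and 186 in Ctrl and 199 in *EC-Ang2*, and *Itgb2*, the leukocyte integrin chain, at 251, 167, 129, and 246 CPM. Of 8 genes in this list, only *Itgb2* passed the filter, in the blockade pair, at a log2 ratio of −0.58, and it did not pass the limit.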

How the data were processed

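Unfiltered UMI count matrices of 27998 genes were deposited by the authors for 4 libraries (10x Chromium 3′ chemistry). Per the labels, reads were processed with Cell Ranger 2.1.1 against mm10, and Seurat 2.3.4 is also named; the counts are raw and not normalized. Counts of genes that share a symbol were summed (27933 symbols). The members, gene lists, and limits were chosen with earlier results of these data known. The rule held 1 further upper limit that, like a few other results, is not reported here.

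UMIs of members were summed per library and divided by their total (CPM). Ratios carry exact conditional binomial intervals, shares Clopper-Pearson intervals, and levels Poisson intervals (95%, SciPy 1.17.1). Genes were called past 1.5-fold with at least 50 UMIs over both libraries together, UMIs in at least 10% of the members of 1 library, and an interval excluding no difference; a library at 0 was set to 3 counts. Named were the 12 largest ratios per direction and, against each class, the 15 genes with the largest smallest ratio, plus list genes. Free RNA was profiled in barcodes of up to 100 UMIs and scaled by 13 endothelial genes. Doublets were kept; their removal used Scrublet (Scanpy 1.11.5) at 0.8% per 1000 barcodes. The intervals and calls were tested on simulated Poisson counts of whole libraries. These held no differences between cells, so that test covers counting error only. Libraries held 52084739 to 66631583 UMIs. Alternatives were other limits of the rule, depth minimums, thinning, doublet and free RNA removal, centring, and other folds and filters.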

Additional observations from a re-analysis of the deposited data

Results flagged for a closer look

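A few genes had ratios of opposite sign in the members and in another class of myeloid cells of the same libraries, each past 1.5-fold. With 1 library per condition, these differences were not tested. For Ang2 Ab over mIgG1, *Cxcl10* had a log2 ratio of −2.69 in members, 1.33 in microglial-gene-positive cells, and 1.99 in Ly6c2 Plac8 monocytes. *Cd72* was at 3.31 in members and −0.82 in monocytes, and *Cd9* at −1.80 in members and 0.61 in monocytes. Without the upper limits of the rule, *Cxcl10* was at 0.45 and *Cd9* at 0.0213 in members. For *EC-Ang2* over Ctrl, *Plac8* was at 2.09 in members and −1.45 in microglial-gene-positive cells, and at −0.15 in members without the upper limits. *Il1rn* was at 4.43 in members and −0.87 in monocytes, and *Ccl5* at 2.00 and −0.81, but the *Ccl5* ratio of members was 0.34 without its top cell and −1.03 with at most 1 microglial UMI. *Cxcl10* in members rests on 5 UMIs in Ang2 Ab, and *Il1rn* on 4 UMIs in Ctrl.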

How the results depend on the processing

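With 1 library per condition, no replicate could be left out. No paired analysis was possible because each condition had 1 library and no result comes from a test. Shares of members in microglial-gene-low cells moved past their intervals in these cases: 0.755% in Ctrl (11 cells) with the thresholds read at 2000 UMIs per barcode; 2.86% in mIgG1 and 2.67% in Ctrl with at least 2 *Ms4a7* UMIs; 1.18% in mIgG1 and 0.42% in Ang2 Ab with at least 5. Without the upper limits of the rule, those on *Gpnmb* and *Nos2* included, the shares of mIgG1, Ang2 Ab, Ctrl, and *EC-Ang2* were 24.5%, 9.20%, 2.58%, and 7.3%. Counts of genes (94 higher and 45 lower for Ang2 Ab, 102 higher and 66 lower for *EC-Ang2*) became 249, 118, 276, and 324 without these limits (3.99%, 1.89%, 7.13%, and 8.37% of the genes then tested), and 10, 6, 27, and 39 of them were also called with the limits. With a fold of 2 they were 33 higher in Ang2 Ab, and 44 and 39 in the overexpression pair, with 10 UMIs and no share of cells 215, 69, 218, and 141 (of 4027 and 2798 tested). Centring gave 70 lower in the blockade pair, thresholds at 2000 UMIs gave 86 and 58 genes in the blockade pair (4.63% and 3.12% of those tested) and 63 and 49 in the overexpression pair (14.6% and 11.4%), of which 23, 16, 36, and 21 were also called in the members as chosen, and at least 2 *Ms4a7* UMIs gave 115 lower there (10.4%).

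Of 86 ratios of genes named in the text, 42 left their interval and a further 7 changed sign with the thresholds read at 2000 UMIs, and 53 and 5 did so without the upper limits, and the cause was not tested. With the thresholds read at 2000 UMIs, Ang2 Ab over mIgG1 was 0.40 for *Ctsd*, 0.72 for *Fabp5*, −0.10 for *Sdf2l1*, 0.0818 for *Syngr1*, and 0.18 for *Trf*, and *EC-Ang2* over Ctrl was 1.26 for *Cxcl2* and 0.84 for *S100a8*. Without the upper limits, *Cd9* was at 0.0213, *Cxcl10* at 0.45, and *Fth1* at 0.0915 in the blockade pair, and *Isg15* at −0.65, *Plac8* at −0.15, and the interferon median at −0.60 in the overexpression pair. *Ccl5* was at −1.03 in *EC-Ang2* with at most 1 microglial UMI, and *Cxcl2* at 0.58 with at least 5 *Ms4a7* UMIs. Without the top cell of each gene, chosen after seeing the data, 39 of 94 higher and 32 of 45 lower genes in the blockade pair and 59 of 102 and 33 of 66 in the overexpression pair stayed past the limit. Of the genes named for the largest ratios 23 of 24 and 20 of 22 did (not *Sdf2l1*, *Ccl5*, and *S100a8*), and of other called genes followed in the text 7 of 13 and 7 of 11. Leaving out Scrublet doublets removed no member.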
